A study of Mus musculus with 9 samples.

Results

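The Hox genes are the 20 genes of the deposited count table whose symbols begin Hoxa, Hoxb, Hoxc or Hoxd followed by a digit, out of 21536 genes in the table. Antisense and opposite-strand names were not counted as members. The reference annotation holds 39 such genes, and the other 19 were not analysed here. The trigeminal ganglia, which hold the sensory neurons of the face, came from wild type mice of the FVB/N strain, both sexes, 3 to 6 weeks of age by the labels, and were dissociated for 9 Dropseq runs that each pooled many animals. Neurons were enriched on a Percoll gradient and by depletion of other cells, and all barcodes were deposited in a single table that does not name the run. The barcodes thus count as a single sample without replicates, and groups of barcodes were compared by counting error alone. A barcode was counted as a neuron when it had 500 to 7500 genes, a UMI of at least 3 of Tubb3, Scn9a, Snap25, Nefl, Nefm and Uchl1, and no UMI of Epcam. A UMI is a transcript molecule counted once, whatever its number of reads.

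Hox genes code for homeodomain transcription factors that lie in 4 clusters and are switched on in the order of their position along the head to tail axis of the embryo. Their proteins bind DNA together with TALE homeodomain partners of the Pbx and Meis families, Polycomb proteins keep the clusters silent and Trithorax proteins keep them active. The neural crest that populates the first branchial arch, and that gives rise to part of the trigeminal ganglion, is known as Hox-negative, whereas spinal sensory neurons carry Hox codes. In dorsal root ganglia of the mouse, Hoxd1 is known for its expression in nociceptors that depend on nerve growth factor.

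Most Hox UMIs of the neurons came from a single gene, Hoxd1, and the other Hox genes lay mostly in cells that are not neurons. The upstream sequences of the 4 genes with 10 or more UMIs, Hoxd1, Hoxd3, Hoxd8 and Hoxd9, are shown because these genes hold the main contrast: Hoxd1 UMIs lay mostly in sensory neurons, and the levels of the other 3 were highest in endothelial-like barcodes. All 4 lie on the plus strand of chromosome 2 in build GRCm38.p6, and each line gives the 250 bases before the RefSeq start. The windows are chr2:74762730-74762979 for Hoxd1, chr2:74711743-74711992 for Hoxd3, chr2:74704365-74704614 for Hoxd8 and chr2:74697513-74697762 for Hoxd9. Capitals mark CCAAT and AGGTCA on either strand, and no marked match overlaps another.
Hoxd1: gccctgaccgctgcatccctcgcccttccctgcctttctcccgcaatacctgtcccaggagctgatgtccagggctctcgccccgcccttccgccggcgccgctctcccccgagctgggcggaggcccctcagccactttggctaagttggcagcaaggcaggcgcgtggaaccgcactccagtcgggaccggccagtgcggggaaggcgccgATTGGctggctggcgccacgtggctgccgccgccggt
Hoxd3: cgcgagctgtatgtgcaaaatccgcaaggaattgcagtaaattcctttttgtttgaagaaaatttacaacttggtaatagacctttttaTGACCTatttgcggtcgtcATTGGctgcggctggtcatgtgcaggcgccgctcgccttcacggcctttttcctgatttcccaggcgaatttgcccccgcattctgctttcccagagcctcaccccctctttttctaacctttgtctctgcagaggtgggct
Hoxd8: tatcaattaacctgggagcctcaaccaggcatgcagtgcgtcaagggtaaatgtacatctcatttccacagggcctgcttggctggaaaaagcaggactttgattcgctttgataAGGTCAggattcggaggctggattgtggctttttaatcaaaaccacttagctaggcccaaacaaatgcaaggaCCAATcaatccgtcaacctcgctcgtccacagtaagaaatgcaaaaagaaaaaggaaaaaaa
Hoxd9: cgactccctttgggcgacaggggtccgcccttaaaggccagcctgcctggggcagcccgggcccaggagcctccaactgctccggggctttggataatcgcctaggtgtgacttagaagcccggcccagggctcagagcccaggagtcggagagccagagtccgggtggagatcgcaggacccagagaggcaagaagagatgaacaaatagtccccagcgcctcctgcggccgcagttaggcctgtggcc

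Of the 20 members, 14 were matched in the RefSeq table used here. CCAAT was present in 9 of these 14 windows and in 33.8% of all 32817 windows of the same length, and AGGTCA in 4 of 14 and 14.0%. The Hoxd1 window holds CCAAT on the minus strand, 37 to 33 bases before the start. The Hoxd3 window holds both motifs on the minus strand and the Hoxd8 window both on the plus strand, and the Hoxd9 window has neither motif. TGATNNAT, a Pbx-Hox motif, TGACAG, a Meis motif, and TATAAA were searched on both strands as well, and none was present in the 4 windows printed. They were present in 7.69%, 15.9% and 12.4% of all windows, and in 3, 2 and 1 of the 14 Hox windows. The Hoxd1 window was the richest of the 4 in CG dinucleotides, with 24, against 12 for Hoxd3, 6 for Hoxd8, 13 for Hoxd9 and a median of 6 over all windows.

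The table held 515 Hox UMIs among 30491529 UMIs. Within 200 to 8500 genes there were 6464 barcodes with 470 Hox UMIs, of which 347 were in 3855 neurons and 123 in 2609 other barcodes. The 523 barcodes under 200 genes had 0 Hox UMIs and the 10 over 8500 genes had 45. The median depth was 3014 UMIs in neurons and 1595 in the other barcodes. Red blood cell and pituitary RNA was found in many barcodes of both groups: Hbb-bs, a globin gene, had a UMI in 91.4% of neurons and 96.6% of other barcodes, and Gh, growth hormone, in 43.1% and 72.3%. A single Hox UMI in a barcode was therefore read as no more than a UMI. Intervals in parentheses are exact 95% intervals that cover counting error only, and CPM stands for UMIs per 1000000 UMIs of the group.

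The neurons carried the marks of somatosensory neurons. Prdm12, a regulator of nociceptor development, had a UMI in 43.3% of neurons and 3.07% of other barcodes, and Isl1, a sensory neuron factor, in 51.3% and 4.68%. Clusters were built with all Hox genes left out of the variable genes. Of the 3855 neurons, 3586 fell in clusters named sensory neuron-like and 269 in other clusters. The sensory clusters also took in 119 barcodes that the rule did not count as neurons, among them 61 with an Epcam UMI and 30 with over 7500 genes.

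At least 1 Hox UMI was present in 258 neurons, which is 6.69% (5.92 to 7.53), and in 81 other barcodes, which is 3.10% (2.47 to 3.84). At 1000 UMIs per barcode the shares were 1.61% and 1.53%. The summed Hox level was 16.6 CPM (14.9 to 18.4) in neurons and 15.8 (13.1 to 18.9) in other barcodes. The ratio of other barcodes to neurons was 0.953 (0.769 to 1.17), so the sums did not differ beyond counting error. The genes behind the sums differed. Hoxd1 gave 311 of the 347 UMIs in neurons, or 89.6%. Without Hoxd1, the level was 1.72 CPM (1.21 to 2.38) in neurons and 9.25 (7.24 to 11.6) in other barcodes, a ratio of 5.38 (3.56 to 8.26).

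**Figure D1:**
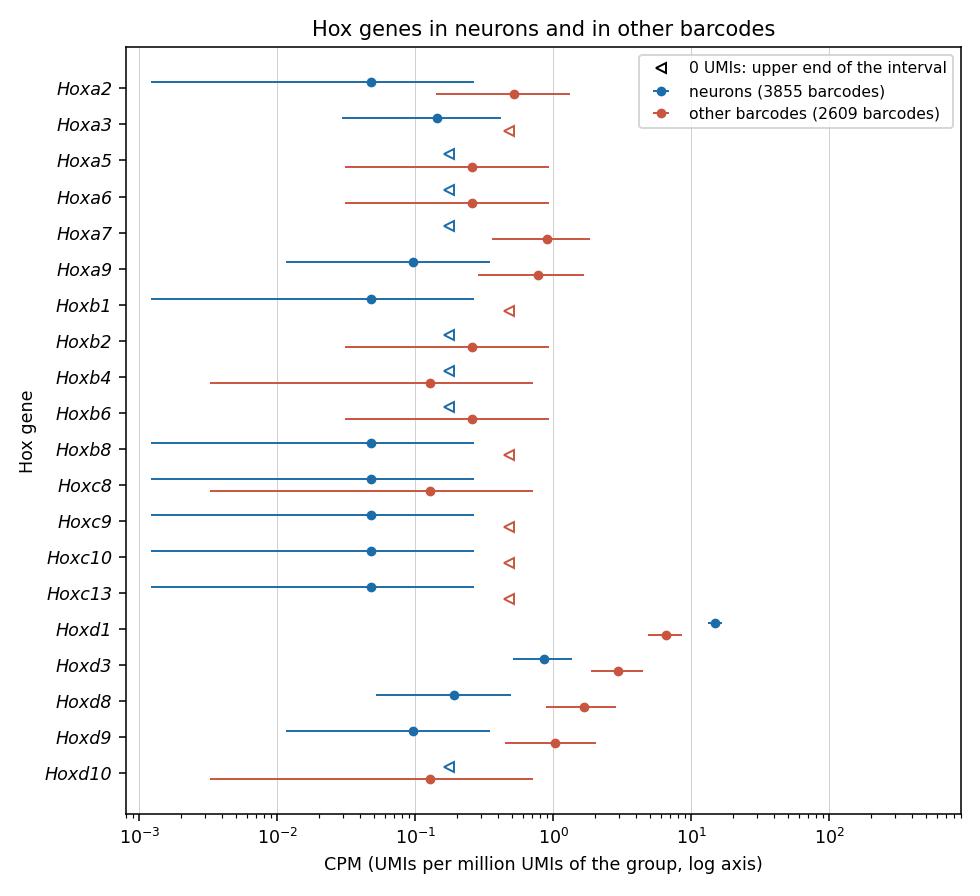
CPM of each of the 20 Hox genes in 3855 neurons and 2609 other barcodes on a log axis, with exact Poisson 95% intervals; an open triangle marks the upper end of the interval of a gene with 0 UMIs. Hoxd1 stands alone near 14.9 CPM in neurons, and Hoxd3, Hoxd8 and Hoxd9 lie higher in the other barcodes.

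Over all genes with 10 or more UMIs in both groups together, 11.1% were at least 2 times higher in neurons and 22.1% at least 2 times higher in other barcodes. Only 4 Hox genes reached 10 UMIs: Hoxd1 was past the fold towards neurons, and Hoxd3, Hoxd8 and Hoxd9 towards the other barcodes. A gene this low reaches 10 UMIs mainly through the group in which it is high, so nothing was read from this count. The other 16 had fewer than 10 UMIs, and 7 of the 20 had a single UMI in the whole table. A UMI in neurons was found for 13 Hox genes and a UMI in other barcodes for 14. The 2 sets shared 7 genes. A gene with a single UMI cannot be in both sets, and the like counts over all genes were not taken, so nothing was read from the overlap.

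Hoxd1, the most 3′ gene of the HoxD cluster (chr2:74762980-74765142, plus strand, GRCm38), had 402 UMIs in 265 barcodes. In neurons it had 311 UMIs in 235 of 3855, or 6.10% (5.36 to 6.90), at 14.9 CPM (13.3 to 16.6). In other barcodes it had 51 UMIs in 24 of 2609, at 6.55 CPM (4.88 to 8.61). Of these 51 UMIs, 46 lay in 19 barcodes of the sensory neuron-like clusters, which had a median of 54587 UMIs each. Barcodes with over 7500 genes held 29 of these 46 UMIs. Outside the sensory clusters, Hoxd1 had 5 UMIs in 5 of 2490 other barcodes, which is 0.201% (0.0652 to 0.468) and 0.958 CPM (0.311 to 2.23). Hoxd1 was 15.5 times (6.58 to 48.1) higher in neurons than in these barcodes. At 1000 UMIs per barcode, 1.32% of neurons and 0.120% of these barcodes had a UMI. Among barcodes with 200 to 8500 genes, none outside the sensory clusters had more than 1 Hoxd1 UMI.

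Among the neurons with a Hoxd1 UMI, 195 had 1 UMI, 22 had 2, 9 had 3, 7 had 4 or 5 and 2 had 6 to 9. The sensory neuron-like clusters held 48 barcodes with 2 or more, and these carried 42.7% of the Hoxd1 UMIs there. Neurons with Hoxd1 were deeper than those without it, with a median of 7648 UMIs against 2861. The neurons were split by depth into 4 groups of like size, and the share with a UMI went from 1.24% (0.645 to 2.16) in the shallowest group to 14.5% (12.4 to 16.9) in the deepest. The level was 10.1 CPM (5.36 to 17.2), 14.9 (10.3 to 21.0), 13.6 (10.3 to 17.7) and 15.7 (13.7 to 18.0) in the 4 groups, and the intervals overlapped. The share of neurons is therefore given for these depths and is not the share of neurons that express the gene.

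**Figure D2:**
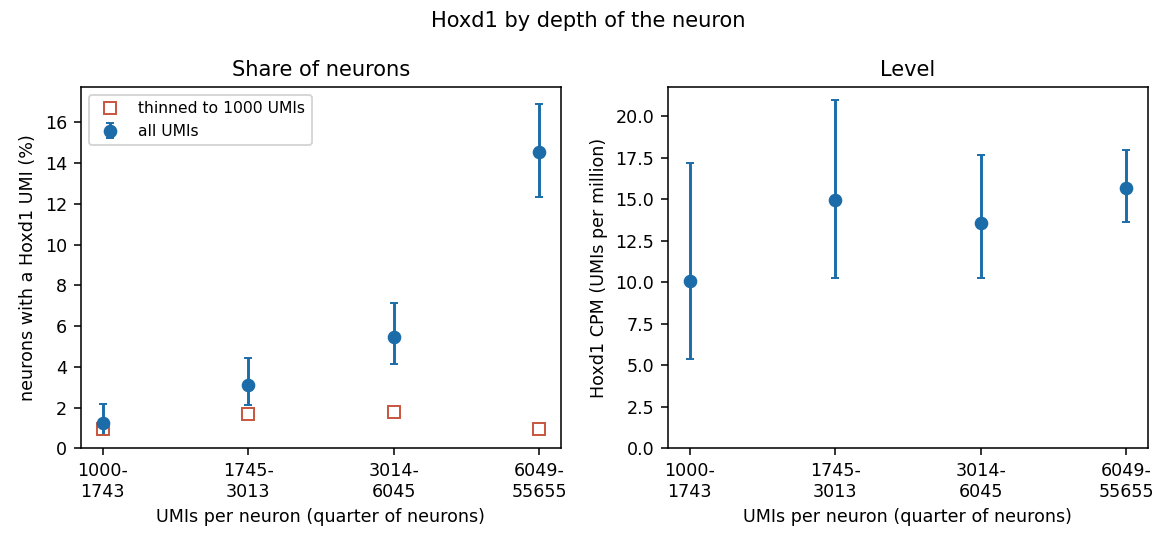
Share of neurons with a Hoxd1 UMI (left, percent) and Hoxd1 level (right, CPM) in 4 groups of neurons by depth, with exact 95% intervals; squares are shares after thinning to 1000 UMIs. The share reaches 14.5% in the deepest group, whereas the 4 intervals of the level overlap.

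Within the sensory neurons, Hoxd1 was unevenly spread. The neurons formed 16 clusters, again without Hox genes, and 15 could be given a class name from marker genes. In neurons of a Trpm8-like class, which carry the cold receptor Trpm8, Hoxd1 had 3 UMIs in 534 neurons, or 1.01 CPM (0.208 to 2.94). In a Mrgprd-like class, nonpeptidergic neurons with the receptor Mrgprd, it had 14 UMIs in 504 neurons, or 4.30 CPM (2.35 to 7.22). The Mrgprd-like level was 4.28 times (1.19 to 23.2) the Trpm8-like level. All 5 other named classes had higher values. The level was 15.1 CPM (11.1 to 20.0) in 444 neurons of a Cd34 Piezo2-like class and 21.3 (17.7 to 25.5) in 1280 of a CGRP-like class with the neuropeptide gene Calca. It was 25.9 (21.2 to 31.2) in 642 of a large Nefh-like class, marked by neurofilament and S100b. In the small Mrgpra3-like and Nppb-like classes, both known as itch neurons, it was 17.4 (7.52 to 34.3) in 79 neurons and 15.2 (4.15 to 39.0) in 69.

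The CGRP-like class was 21.2 times (7.08 to 104) the Trpm8-like class and 4.96 times (2.84 to 9.33) the Mrgprd-like class. The large Nefh-like class was 25.7 times (8.56 to 127) and 6.01 times (3.43 to 11.4) these classes. The Cd34 Piezo2-like class was 3.50 times (1.90 to 6.87) the Mrgprd-like class, and the interval for the Nppb-like class, 3.54 times (0.849 to 11.3), reached below 1. At 1000 UMIs per neuron the shares with a Hoxd1 UMI were 2.65% in the large Nefh-like class, 1.88% in the CGRP-like class, 1.58% in the Cd34 Piezo2-like class, 1.27% (1 of 79 neurons) in the Mrgpra3-like class and 0.198% in the Mrgprd-like class. They were 0 in the 534 Trpm8-like neurons and also in the 69 Nppb-like and 34 unnamed neurons. The median depth of the Trpm8-like neurons, 3380 UMIs, was above that of the CGRP-like and large Nefh-like neurons, 2915.5 and 2712.

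Clusters of the same class differed as well. In the large Nefh-like class, the cluster led by Ntrk2 and Cbln2 had 20 UMIs in 12 of 54 neurons, or 50.5 CPM (30.8 to 77.9). The cluster led by S100a16 and Trappc3l had 65 UMIs in 29 of 210 neurons, or 39.4 CPM (30.4 to 50.2). The cluster led by Spp1 had 22 UMIs in 17 of 378 neurons, or 10.5 CPM (6.59 to 15.9). The first and second exceeded the third by 4.80 times (2.48 to 9.21) and 3.74 times (2.28 to 6.37), and did not differ from each other beyond counting error, with a ratio of 1.28 (0.736 to 2.14). The second remained at 34.6 CPM without its neuron of most UMIs, which held 9. At 1000 UMIs per neuron, the shares with a Hoxd1 UMI lay closer together, at 3.70% (2 of 54 neurons), 2.86% (6 of 210) and 2.38% (9 of 378).

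In the CGRP-like class, the cluster led by Dcdc2a and Sstr2 was at 26.4 CPM (18.3 to 36.9) and the cluster led by Ccl21a and Cartpt at 25.4 (19.2 to 32.9). The cluster led by Fam150b was at 19.1 (11.5 to 29.8) and the cluster led by Gpr83 and Trpa1 at 11.0 (6.01 to 18.5). The first and second were 2.40 times (1.25 to 4.84) and 2.31 times (1.27 to 4.49) the last. In the 2 Cd34 Piezo2-like clusters the levels, 17.4 and 12.1 CPM, did not differ beyond counting error, with a ratio of 1.44 (0.773 to 2.77). The Trpm8-like cluster led by Ndrg1 had 0 Hoxd1 UMIs in 259 neurons with a median of 2883 UMIs, which by 3 counts over the number of neurons allows a share with a UMI of up to 1.16%.

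**Figure D3:**
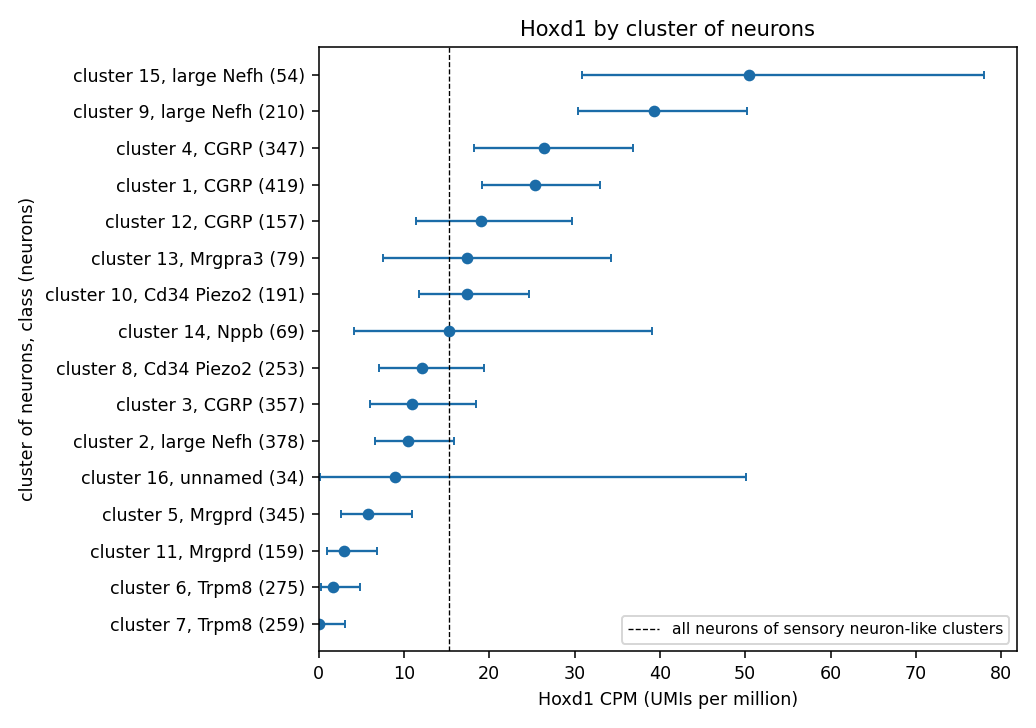
Hoxd1 level in CPM (points, with exact Poisson 95% intervals) in the 16 clusters of neurons, with the number of neurons in brackets and the level over all of them, 15.3 CPM, as a dashed line. Both large Nefh-like clusters at the top and the next 2 CGRP-like clusters lie above the line with their whole intervals, and the Mrgprd-like and Trpm8-like clusters lie below it with theirs.

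Marker genes were also used neuron by neuron in place of clusters. Neurons with a UMI of Trpm8 had Hoxd1 at 4.66 CPM (2.48 to 7.97) and those without at 16.4 (14.6 to 18.4). Neurons with a UMI of Foxp2, a transcription factor of the Trpm8-like list, were at 2.07 CPM (0.565 to 5.31). For Mrgprd the values were 5.87 (3.68 to 8.88) with and 16.8 (14.9 to 18.9) without. In contrast, neurons with S100b were at 22.4 CPM (19.2 to 26.0) and those without at 10.5 (8.83 to 12.4), a ratio of 2.13 (1.69 to 2.68). Kit, a receptor tyrosine kinase of the cluster led by Ccl21a, gave 26.7 (21.8 to 32.4) and 12.2 (10.6 to 14.0).

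For Piezo2, the mechanosensitive channel, the ratio of neurons with to neurons without a UMI was 1.80 (1.39 to 2.36). For Trpv1, the heat and capsaicin receptor, it was 1.17 (0.924 to 1.48), and for Nefh 1.03 (0.762 to 1.40), both intervals including 1. The same held for Tac1, a neuropeptide gene of the CGRP-like list, at 0.900 (0.696 to 1.17), and for Ntrk2, a leading gene of the cluster of highest Hoxd1 level, at 1.13 (0.821 to 1.54). Trpa1, the channel for irritants, gave a ratio of 0.691 (0.518 to 0.910).

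Hoxd3 had 41 UMIs in 34 barcodes within the limits, 18 in neurons and 23 in other barcodes. Vascular endothelial-like barcodes, a cluster of 160 in which Pecam1 had a UMI in 63.8%, Flt1 in 78.8% and Emcn in 76.9% of barcodes, held 20 of the 41 UMIs. Sensory neuron-like clusters, with 3705 barcodes, held 18. The level was 68.7 CPM (42.0 to 106) in the endothelial cluster and 0.792 (0.469 to 1.25) in the sensory clusters, a ratio of 86.7 (43.5 to 174). All remaining barcodes, 2599 in number, held 3 Hoxd3 UMIs, or 0.527 CPM (0.109 to 1.54). The sensory level was 1.50 times (0.439 to 7.97) this value, so Hoxd3 in the sensory neurons could not be told from the level in unrelated cells.

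The 16 sensory barcodes with Hoxd3 had a median of 9453.5 UMIs, and 7 of them also held Hoxd1. In the cluster led by Fam150b, Hoxd3 had 6 UMIs in 5 of 157 neurons, or 6.02 CPM (2.21 to 13.1), which was 10.5 times (3.18 to 30.9) the level in the other neurons of the sensory clusters. This cluster was picked after its value was seen. The gene model of Hoxd3 (chr2:74711927-74748442) overlaps Hoxd4 and Mir10b on the same strand and Haglr and Hoxd3os1 on the other. The strand setting of the counting is not given in the sources used here, so UMIs of these genes cannot be told apart from those of Hoxd3. The same limit holds for Hoxd8, which overlaps Hoxd3os1 on the other strand, and for Hoxa3, Hoxa5, Hoxa6 and Hoxa7, which overlap Hoxaas3. It holds as well for Hoxb6, which overlaps Hoxb5os. Hoxb2 overlaps Hoxb3os, which has 3 UMIs under its own name in the table, so the 2 were told apart at least in part. On the same strand, Hoxa2 overlaps Gm28308, Hoxa9 overlaps Mir196b and Hoxd10 overlaps Gm28309. The gene models of Hoxd1 and Hoxd9 overlap no other gene.

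Hoxd8 and Hoxd9, both in the middle of the HoxD cluster, were found almost only in the endothelial cluster. Hoxd8 had 17 UMIs within the limits, of which 15 lay in 13 endothelial-like barcodes, or 51.5 CPM (28.8 to 85.0), and 2 in the sensory clusters. Hoxd9 had 10 UMIs, of which 9 lay in 9 endothelial-like barcodes, or 30.9 CPM (14.1 to 58.7), and 1 in the sensory clusters. The ratios of the endothelial to the sensory level were 585 (136 to 5274) and 702 (97.3 to 30780). No UMI of either gene was found in the 2599 barcodes outside both groups. The single Hoxd10 UMI was in an endothelial-like barcode.

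In all, 35 of the 160 endothelial-like barcodes, or 21.9% (15.7 to 29.1), had a Hox UMI, and 14.4% had one at 1000 UMIs per barcode. The median depth of the cluster was 1470.5 UMIs, below that of the neurons. Hoxd1, at 3 UMIs in 3 of these barcodes, had 2 of its UMIs in the 12 endothelial-like barcodes that the rule counted as neurons. Its level in the cluster, 10.3 CPM, was 11.7 times (1.82 to 60.3) that of the barcodes outside the sensory and endothelial clusters. Without those 12, Hoxd3 had a UMI in 9.46% (5.27 to 15.4) of 148 barcodes, Hoxd8 in 8.11% (4.26 to 13.7) and Hoxd9 in 5.41% (2.36 to 10.4), and Hoxd1 in 0.676% (0.0171 to 3.71). Of the 35 barcodes, 30 held a single Hox gene, 4 held 2 and 1 held more. Hoxd3 and Hoxd8 met in 4 barcodes.

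**Figure D4:**
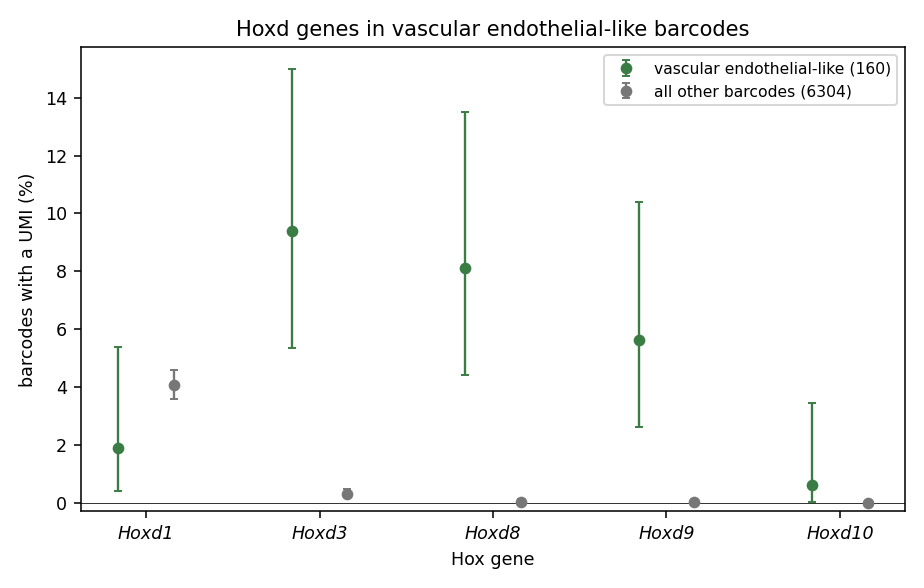
Share of barcodes with a UMI of 5 Hoxd genes, in percent, in 160 vascular endothelial-like barcodes and in 6304 other barcodes, with exact binomial 95% intervals. Hoxd3, Hoxd8 and Hoxd9 are each found in over 5% of the endothelial-like barcodes and in at most 0.301% of the rest, whereas Hoxd1 is at 1.88% and 4.06%, the rest being mostly sensory neuron-like barcodes.

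The 32 endothelial-like barcodes with Hoxd3, Hoxd8 or Hoxd9 were set beside the 128 without. Mfsd2a, a lipid transporter of capillaries of the brain barrier, had a UMI in 65.6% (46.8 to 81.4) of the former and 31.3% (23.4 to 40.0) of the latter. Cldn5, a tight junction gene of endothelium, had one in 15.6% (5.28 to 32.8) and 39.1% (30.6 to 48.1), and Plvap, a gene of fenestrated endothelium, in 53.1% (34.7 to 70.9) and 47.7% (38.8 to 56.7). Their median depths were 1862.5 and 1462 UMIs. These comparisons follow from a split by the Hox genes and were picked after the values were seen.

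Hoxa7 and Hoxa9, neighbours in the HoxA cluster and known for their roles in blood progenitors, were found in blood cells. A B lineage-like cluster of 127 barcodes held 5 Hoxa7 UMIs in 4 barcodes, 5 Hoxa9 UMIs in 3 barcodes and 1 UMI each of Hoxa5 and Hoxb6, the other members with most UMIs there. Vpreb3 had a UMI in 78.0% of these barcodes and Igll1 in 71.7%, both genes of the immature B cell receptor. S100a8 and S100a9, granulocyte genes among the leading genes of the cluster, each had a UMI in 1 barcode, which held no Hox UMI. The 4 barcodes with Hoxa7 each had 3 to 5 of 10 B lineage markers. Of the 3 with Hoxa9, 1 had 8 of the markers and held 1 UMI, and the other 2, with 0 and 1 marker, held 2 UMIs each.

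A dividing blood progenitor-like cluster of 109 barcodes, with Car1 in 80.7% and Myb in 40.4%, held 3 Hoxa9 UMIs in 3 barcodes and 1 UMI each of Hoxa6, Hoxa7 and Hoxb4. The name rests on 6 of 10 listed markers. Of the same list, Gata1 had a UMI in 33.0% of its barcodes, Tal1 in 20.2% and Gata2 in 4.59%. Cd34 and Spi1 were found in 0 of its barcodes, against 6.99% and 0.0944% of the rest. The 2 Hoxa9 UMIs counted in neurons both lay in this cluster. Outside the 2 blood clusters, Hoxa9 had 0 UMIs and Hoxa7 had 1 in 6228 barcodes. The level in both clusters together was 15.3 CPM for Hoxa9 and 11.5 for Hoxa7. The 499 erythroid-like barcodes, later in the red cell lineage, held 1 Hoxa5 UMI and 3 Hoxd1 UMIs.

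Hoxa2 and Hoxb2, the most anterior genes of the hindbrain Hox code, were found in glia. An oligodendrocyte-like cluster of 116 barcodes led by Bcas1 and Gpr17, genes of newly formed oligodendrocytes, held 4 of the 5 Hoxa2 UMIs in 4 barcodes and both Hoxb2 UMIs in 2 barcodes. Hoxa2 was at 19.9 CPM (5.41 to 50.9) there and had 1 UMI in 6348 other barcodes, a ratio of 566 (56.1 to 27898). The Hoxa2 UMI counted in neurons was in this cluster. The second oligodendrocyte-like cluster, 216 barcodes with Mobp and Mag among its leading genes, had 0 UMIs of both genes and 1 UMI each of Hoxa3 and Hoxd3. The 2 clusters had median depths of 1549.5 and 2196.5 UMIs. The labels name no tissue but the ganglion, and the source of these barcodes was not tested.

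**Figure D5:**
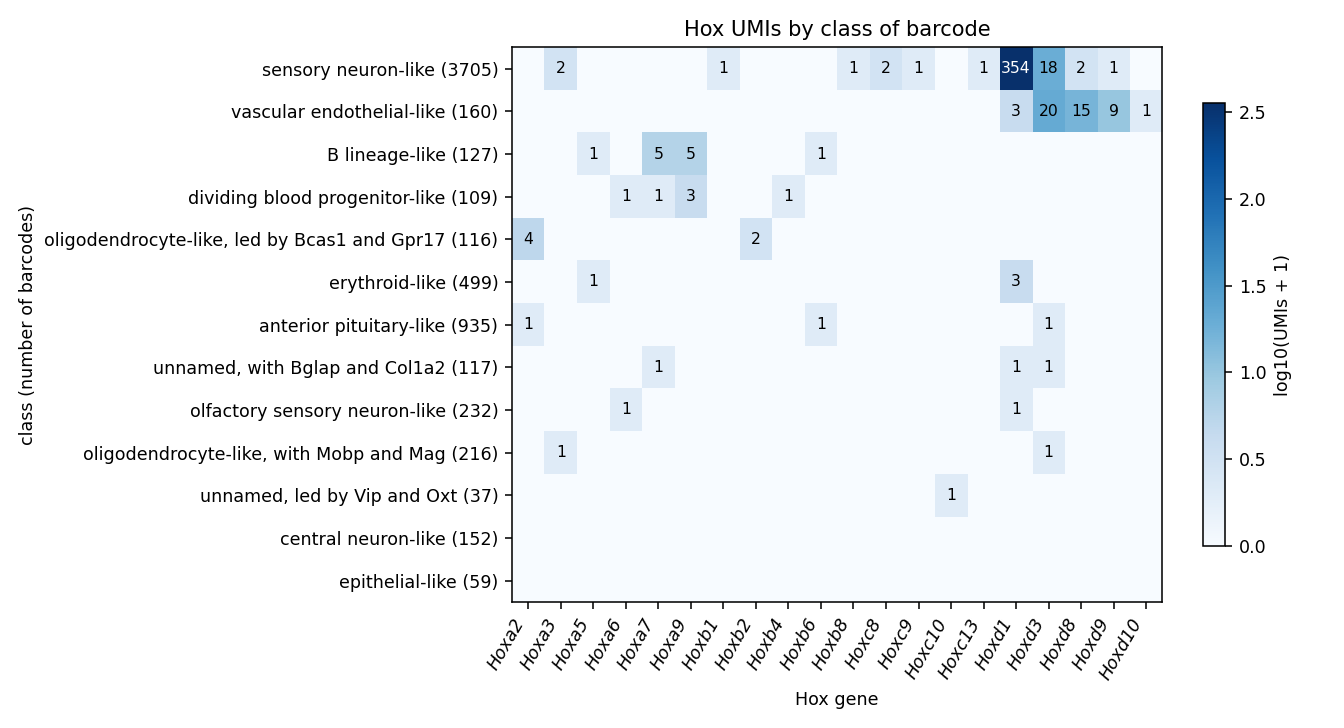
Number of UMIs of each Hox gene in each class of barcode, with the number of barcodes of the class in brackets and colour by log10(UMIs + 1). Hoxd1 fills the sensory neuron-like row with 354 UMIs, and Hoxd3, Hoxd8 and Hoxd9 with 20, 15 and 9 UMIs the vascular endothelial-like row.

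The remaining Hox UMIs of the neurons were single molecules. Hoxa3 had 3 UMIs in 3 neurons, of which 2 were in sensory clusters. Hoxb1, Hoxb8, Hoxc8, Hoxc9 and Hoxc13 had 1 UMI each, all in sensory clusters, and the single Hoxc10 UMI lay in a small unnamed cluster led by Vip and Oxt. In all, 10 of the 13 Hox genes with a UMI in neurons kept one in the neurons of sensory clusters, and 3 genes had 2 or more UMIs in any neuron. By the same 3 counts, 0 UMIs in the 3855 neurons allows a share with a UMI of up to 0.0778%. Hoxa5, Hoxa6, Hoxa7, Hoxb2, Hoxb4, Hoxb6 and Hoxd10 were at 0 in neurons and had 1 to 7 UMIs in other barcodes. The gene models of Hoxa3, Hoxc8, Hoxc9 and Hoxc10 overlap other Hox genes on the same strand, so their single UMIs are uncertain in name.

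Other neighbours in the preparation gave little Hox signal. In 935 anterior pituitary-like barcodes there were 3 Hox UMIs, 1 each of Hoxa2, Hoxb6 and Hoxd3, and 0 of Hoxd1. In 232 olfactory sensory neuron-like barcodes there were 2, and in 152 central neuron-like and 59 epithelial-like barcodes 0, for which 3 counts allow a share with a UMI of up to 1.97% and 5.08%. A second unnamed cluster, with the bone genes Bglap and Col1a2 among its leading genes, had 3 in 117 barcodes. The Hox-region transcripts that are not members, HOTAIRM1_5, Hotair and Hoxb3os, had 3, 1 and 3 UMIs in the table.

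The TALE partners of Hox proteins were found in both groups. Of 10, 2 were at least 2 times higher in neurons and 1 in other barcodes, beside 11.1% and 22.1% of all genes, with a median log2 ratio of neurons to other barcodes of -0.10, against 0.049 over all genes tested. Meis2 was at 55.6 CPM in neurons and 27.0 in others, a ratio of 2.06 (1.78 to 2.40), and Pknox2 at 22.7 and 7.84, a ratio of 2.90 (2.22 to 3.85). Tgif1, a TALE repressor, was at 0.860 and 15.0 CPM.

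By class, Meis2 was at 137 CPM in large Nefh-like neurons and 10.1 in Trpm8-like neurons. Meis3 went the other way, with 29.0 CPM in large Nefh-like and 68.4 in Trpm8-like neurons. In the endothelial cluster, Meis2 was at 134 CPM, and Meis1 and Pknox2 had 0 UMIs, with intervals up to 12.7 CPM. This limit lies above the level of Meis1 in the sensory clusters, 8.63 CPM, and below that of Pknox2, 22.5 CPM. A lower level of Meis1 than in the sensory clusters was thus not shown. In the B lineage-like cluster, Meis2 had 0 UMIs, with an interval up to 15.2 CPM, which is above the level in Trpm8-like neurons.

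Chromatin regulators of the Hox clusters were listed together with signals that induce Hox genes. Of 22 tested, 2 were at least 2 times higher in neurons and 3 in other barcodes, which is near or below the 11.1% and 22.1% of all genes. The 2 were Gdf11, a ligand that patterns the trunk, and Cyp26a1, a retinoic acid hydroxylase with 30 UMIs in neurons and 1 in others. The 3 were Ezh2, Kdm6b and Rara, a retinoic acid receptor. Ezh2, the catalytic subunit of Polycomb complex 2 in dividing cells, was at 21.0 CPM in neurons and 132 in others, whereas its relative Ezh1 was at 61.3 and 37.8. The median log2 ratio was -0.29. Kmt2a, the Trithorax methyltransferase, was at 83.3 and 100.3 CPM, a ratio of 0.830 (0.762 to 0.904).

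Of 12 factors that pattern the hindbrain and its neighbours, 8 had 10 or more UMIs, and 7 of these were at least 2 times higher in other barcodes and 0 in neurons, beside 22.1% and 11.1% of all genes. The 4 Irx genes among the 7 had 10 to 14 UMIs each, and the intervals for Irx2 and Irx5, 0.372 (0.0856 to 1.62) for both, included 1, so nothing was read from this count. Egr2, which marks odd rhombomeres in the embryo and myelinating Schwann cells later, was at 3.78 CPM in neurons and 35.3 in others. Otx2, a gene of the forebrain and midbrain, was at 4.25 and 10.4. Of 10 factors of sensory neuron identity, 8 were at least 2 times higher in neurons and 0 in others, beside 11.1% and 22.1% of all genes. Among these, Pou4f1 was at 175 CPM in neurons and Tlx3 at 44.4, 2.88 times (2.62 to 3.18) and 3.09 times (2.54 to 3.79) the level in other barcodes. The other barcodes include 119 of the sensory neuron-like clusters, so these ratios do not set neurons beside cells of other kinds alone. Pou4f1 had 3664 UMIs in neurons and 473 in other barcodes, and 4102 in the sensory clusters. Most of the 473 thus lay in sensory clusters. The ratios of the other lists above have the same limit.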

How the data were processed

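Ganglion cells were captured by Dropseq, and the authors kept barcodes with more than 1000 transcripts. Per the submitters' processing notes, bcl2fastq 2.17, STAR 2.5.3a, Seurat 1.4.0.16 and build mm10 were used. The deposited values are UMI counts per gene, not normalized, in 6997 barcodes with 1000 to 190815 UMIs each. In 6 cases a barcode sequence occurs in 2 columns, and 528 barcodes end in N.

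Counts were analysed with Python 3.11.15 (numpy 2.4.6, scipy 1.17.1, scikit-learn 1.9.0, igraph 0.11.9, leidenalg 0.10.2). CPM have exact Poisson intervals, shares Clopper-Pearson intervals, and CPM ratios exact conditional binomial intervals. Clusters came from 2000 variable genes without Hox or mitochondrial genes, 30 principal components and Leiden clustering at resolution 2 for all barcodes and 1 for neurons. A cluster was named from at least 3 listed markers that were at least 2 times higher in it. Sensory neuron-like clusters needed 8 of 11 sensory markers, each in 25% of their barcodes, a rule set after the clusters were seen. No doublet caller was run and no doublets were removed. Fold counts took genes with 10 or more UMIs, with a group under 3 UMIs set to 3. The fold and interval functions were tested on simulated data. Named with values are the Hox genes with a UMI in neurons, the 12 with most UMIs, and the 3 leading members of each class with 10 or more Hox UMIs. Members and lists were chosen with earlier results of these data known. Alternatives were thinning, a stricter neuron rule, neurons within sensory clusters, 2 UMIs for detection, a mitochondrial limit of 20%, no limit on genes, and leaving out the barcodes of most Hox UMIs. Gene positions are from GENCODE and upstream sequences from RefSeq.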

Additional observations from a re-analysis of the deposited data

Results flagged for a closer look

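Hoxd1 was also found in data that the main comparisons left out and that the repeat without a limit on genes took in. The 10 barcodes with over 8500 genes, which the limits left out of both groups, had 40 Hoxd1 UMIs in 6 barcodes, or 35.4 CPM (25.3 to 48.3), which was 2.38 times (1.67 to 3.32) the level in neurons. The fullest held 13 Hoxd1 UMIs. These barcodes had 77743 to 190815 UMIs, all 10 had a UMI of each of the 6 neuronal genes, of Piezo2 and of Nefh, 9 had Calca, 8 had S100b, 2 had Mrgprd, 0 had Trpm8, 1 had Pecam1 and 1 had Epcam. They also held 2 UMIs each of Hoxd3 and Hoxd8 and 1 of Hoxd9. Whether any of them holds more than 1 cell was not tested.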

How the results depend on the processing

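Of 24 repeats of the main values under another setting, 13 stayed within counting error or, for a count of genes, within 1.5 times, and 11 moved. Thinning to 1000 UMIs gave 7 Hox genes with a UMI in neurons, a share of 1.61% of neurons and 1.53% of other barcodes. Asking for 2 or more UMIs of the same gene gave 3 genes, 1.12% and 0.537%. With 5 or more of the 6 neuronal genes, the share of neurons was 7.65%. The next alternatives were chosen after seeing the data. With Hoxd1 left out, the comparison of the groups turned over: the shares went from 6.69% of neurons and 3.10% of other barcodes to 0.830% and 2.22%, and the ratio of other barcodes to neurons from 0.953 (0.769 to 1.17) to 5.38 (3.56 to 8.26). Outside sensory neuron-like clusters, the share of other barcodes was 2.45%. The cause of these moves was not tested beyond the construction of each setting. The ratio of summed Hox CPM ran from 0.866 to 1.06 under all settings but the one without Hoxd1. No paired analysis was possible because the barcodes of all 9 runs form 1 group and do not name the run, and for the same reason no run could be left out. The 16 Hox genes with under 10 UMIs rest on few molecules, and their levels and ratios have wide intervals.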
